A study of Mus musculus with 10 samples.

Results

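Iron and heme handling was followed through 10 genes: Tfrc, Slc11a2, Fth1, Slc40a1, Ireb2, Aco1, Alas1, Fech, Hmox1 and Mb. Every probe set whose annotation names one of these genes alone was taken, which gave 27 of the 45101 probe sets on the array. The RNA came from gastrocnemius muscle of 5 male D257A mice, homozygous for a form of Polg that lacks proofreading, and 5 male WT mice (Polg+/+), all 13 months old, with 1 Affymetrix mouse genome array per mouse. Polg is the mitochondrial DNA polymerase, and loss of its proofreading raises the rate of mutation in mitochondrial DNA. The change is carried in every tissue, so that muscle fibres and all other cells of the muscle share it. The tissue label gives gastrocnemius, although a line of the extraction protocol speaks of cochlea. The muscle genes Ckm and Acta1 gave scaled signals of 50690 to 59054 in D257A mice and 45202 to 63085 in WT mice.

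Iron enters most cells bound to transferrin, through the transferrin receptor, and leaves the endosome through the metal transporter Slc11a2. Inside the cell it is stored in ferritin, exported by ferroportin (Slc40a1), or passed to mitochondria, where heme and iron-sulfur clusters are made. The regulatory proteins IRP1 (Aco1) and IRP2 (Ireb2) bind the transferrin receptor and ferritin mRNAs when iron is low, which stabilizes the receptor message and blocks translation of ferritin. Skeletal muscle holds much heme in the cytochromes and in myoglobin. In build GRCm38.p6, Alas1 lies on chromosome 9 (106233455 to 106247954), Mb on chromosome 15 (77015487 to 77050668), Slc40a1 on chromosome 1 (45908070 to 45926532) and Tfrc on chromosome 16 (32608896 to 32632794).

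Of the 27 probe sets, 3 are control probe sets that the array carries for Tfrc, 5 were too dim to be tested and 19 were tested. A signal is the brightness of a probe set after each array was scaled to a trimmed mean of 500, and a log2 fold change is that of D257A over WT, given with the standard error of limma. A probe set was called at a Benjamini-Hochberg adjusted p under 0.05 over all 22518 probe sets tested. In D257A muscle Alas1 and Mb were lower and Slc40a1 was higher, with 4 of the 19 tested probe sets called, 1 higher and 3 lower. This is 21.1% of them, against 7.38% of all probe sets tested. Both tested Alas1 probe sets are among the 4, so that 3 of the 10 genes had a called probe set. The genes were chosen with earlier results of these data known, so these shares are a description. The other 7 genes had no called probe set. The median log2 fold change of the 19 was -0.07, against -0.03 over all probe sets tested.

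Before scaling, trimmed means were 93.4 to 106 on D257A arrays and 94.5 to 129 on WT arrays. One WT mouse, 1-13M, differed from the rest of its group. Over the 3428 probe sets called when it was left out (15.2% of those tested), it lay at 0.64 on a line on which the other 4 WT mice average 0 and the D257A mice average 1. Those probe sets were chosen without it, so this is a description of the mouse. Its WT label was kept, and whether that label is right was not tested. Results that rest on this mouse are given with and without it. Among all probe sets called, 49.3% were higher in D257A mice, against 79.4% when each array was centred on its median and 29.4% with no scaling.

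**Figure D1:**
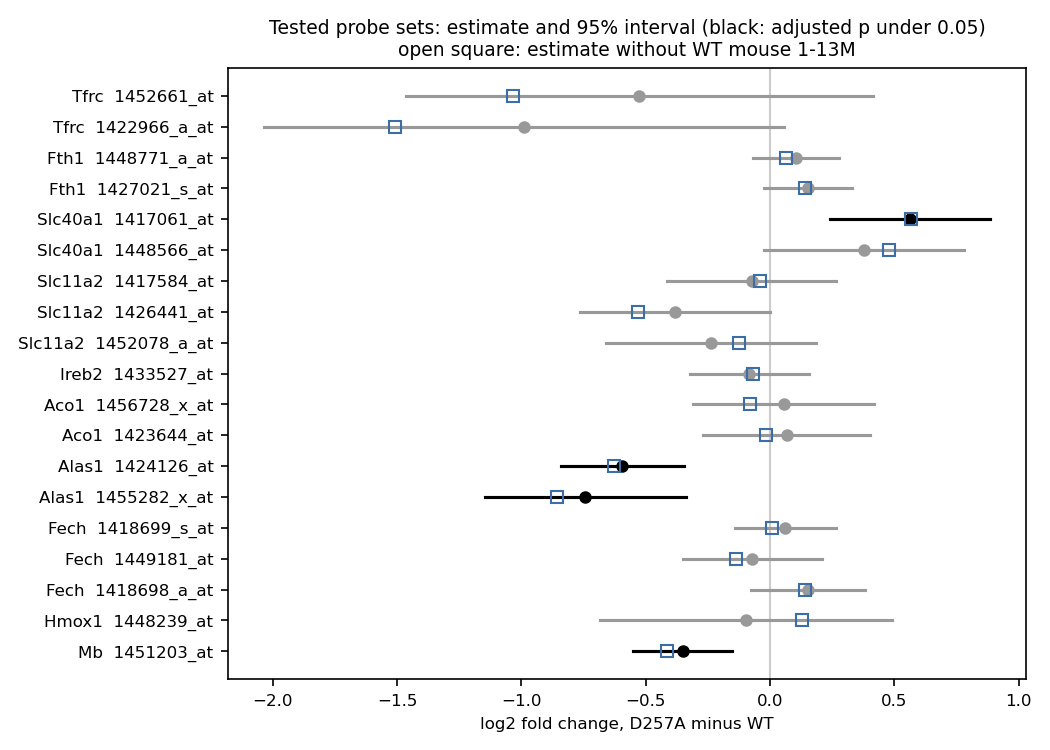
Log2 fold change, D257A minus WT, of the 19 tested probe sets of the iron and heme genes (horizontal axis), with the 95% interval as a line and the estimate without WT mouse 1-13M as an open square. The 4 black estimates, of Alas1, Mb and Slc40a1, have an adjusted p under 0.05, and the Tfrc estimates move furthest from 0 when WT mouse 1-13M is left out.

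Alas1, 5-aminolevulinate synthase, is the first and rate-limiting enzyme of heme synthesis outside red cells. Its brighter probe set, 1424126_at, had signals of 3368, 2640, 2523, 2351 and 2843 in D257A mice, against 4182, 3730, 3992, 4703 and 4012 in WT mice. Every D257A mouse lay below every WT mouse, WT mouse 1-13M included. The mean was 2745 ± 392 in D257A mice (SD, n = 5) and 4124 ± 362 in WT mice (SD, n = 5). The log2 fold change was -0.59 ± 0.12 (limma, adjusted p = 0.00774), a change of -33.7%. This was the one tested probe set of the 10 genes whose genotypes did not overlap, or 5.26% of the 19, against 7.71% of all probe sets tested. In RNA from whole muscle, fewer cells of a type and less RNA per cell cannot be told apart. The call held under each of the 22 alternatives run, with adjusted p up to 0.046.

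The other Alas1 probe set, 1455282_x_at, may also read similar sequences, as its suffix marks, just as the suffixes s and a mark probe sets that read several transcripts or genes. It gave 505, 651, 429, 527 and 344 in D257A mice, against 773, 583, 788, 1029 and 918 in WT mice. One D257A mouse, 2-21M, lay above WT mouse 1-13M. The log2 fold change was -0.74 ± 0.19 (limma, adjusted p = 0.0295), and the call held under 11 of the 22 alternatives. Leaving out any 1 of 7 mice ended it (all but D257A mice 2-21M and 2-27M and WT mouse 1-13M), with adjusted p from 0.0546 to 0.0805. Without WT mouse 1-13M the log2 fold change was -0.86 (adjusted p = 0.00438).

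Bases before an annotated start of Alas1, Mb and Tfrc are shown. Alas1 and Mb were picked because they were called lower in D257A mice. Tfrc, which was not called with all 10 mice, was picked because it was called lower without WT mouse 1-13M. Each window is the 250 bases before an annotated start in RefSeq, build GRCm38.p6, written 5′ to 3′ on the strand of the gene. Where a gene has several annotated starts, a window with the most matches is shown. For each of these genes that start lies inside the gene bounds given above. The Mb window lies wholly within those bounds, and the Alas1 and Tfrc windows lie largely within them. The windows before the outermost starts are not shown. Capitals mark 4 motifs, searched on both strands: the NRF-1 motif GCGCANGCGC (NRF-1 regulates nuclear genes of mitochondria), the MEF2 motif (MEF2 regulates muscle genes), the hypoxia core ACGTG and the CCAC box CCCCACCC. They occur in 3.74%, 0.508%, 16.6% and 9.05% of all 32851 windows, and a match describes the letters and is no site. These shares are per single window and are no measure for a window picked for its matches. Of the windows not shown, that of Alas1 holds the CCAC box alone, that of Tfrc holds no motif, and those of Mb hold the CCAC box or no motif. The Alas1 window, chr9:106247731-106247980 on the minus strand, holds the NRF-1 motif at position -224, on the other strand, and at -195, and the MEF2 motif at -169, counted from -1 for the base before the start.
Alas1: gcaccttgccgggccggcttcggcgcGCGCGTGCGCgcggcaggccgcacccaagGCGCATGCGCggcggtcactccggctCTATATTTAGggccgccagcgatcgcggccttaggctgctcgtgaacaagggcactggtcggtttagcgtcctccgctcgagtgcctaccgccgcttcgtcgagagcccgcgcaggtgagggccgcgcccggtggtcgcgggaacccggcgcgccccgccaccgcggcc

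Mb, myoglobin, is the heme protein that holds oxygen in muscle. Probe set 1451203_at had signals of 31681, 38547, 36818, 35979 and 36906 in D257A mice, against 54079, 38334, 46526, 42638 and 49040 in WT mice. The D257A mice lay below the WT mice except for WT mouse 1-13M, which fell just below D257A mouse 2-21M. The mean was 35986 ± 2580 in D257A mice (SD, n = 5) and 46124 ± 6016 in WT mice (SD, n = 5), a log2 fold change of -0.35 ± 0.09 (limma, adjusted p = 0.0353). The change was -21.6%. Without WT mouse 1-13M the genotypes did not overlap and the log2 fold change was -0.42 (adjusted p = 0.00335). The call held under 9 of the 22 alternatives, and leaving out any 1 of 8 mice, all but D257A mouse 2-21M and WT mouse 1-13M, ended it with adjusted p from 0.0538 to 0.0953. The adjusted p was 0.168 with each array centred on its median and 0.203 when mice were blocked by the leading digit of their numbers. The signals stood at 49.4 to 75.8% of the highest signal on their arrays, and whether the scale is linear there was not tested. The other probe set of Mb, 1422420_at, was dim, with 4.00 to 24.7 in D257A mice and 5.99 to 23.7 in WT mice, and was not tested.

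The Mb window, chr15:77022788-77023037 on the minus strand, holds the CCAC box at position -57, and neither the NRF-1 nor the MEF2 motif.
Mb: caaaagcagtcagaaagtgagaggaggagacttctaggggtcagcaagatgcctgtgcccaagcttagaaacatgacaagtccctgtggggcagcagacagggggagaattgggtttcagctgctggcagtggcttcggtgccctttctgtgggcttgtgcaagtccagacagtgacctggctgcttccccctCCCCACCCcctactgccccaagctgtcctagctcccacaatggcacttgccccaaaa

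Myoglobin is more abundant in slow than in fast fibres. Limma called none of 8 slow fibre markers and none of 10 fast fibre markers. Of all genes tested, 3.71% were called higher and 3.52% lower. Under an unadjusted p of 0.05 were 2 of the 8 and 0 of the 10. The log2 fold changes of the 8 slow fibre markers ran from -0.01 to 0.59, with a median of 0.20. Both fibre lists were wider than the plan. The planned slow fibre markers Myh7, Tnnt1, Tnni1, Myl2 and Tnnc1 had 0.59, 0.44, 0.34, 0.33 and 0.07. The added Myl3, Atp2a2 and Myoz2 had 0.03, -0.01 and -0.01. The summed signal of the slow fibre markers was 98193 to 141672 in D257A mice and 74712 to 127771 in WT mice. That of the fast fibre markers was 528297 to 573829 in D257A mice and 463917 to 600266 in WT mice, at 63.2 to 100% of the highest signal on their arrays, where linearity was not tested. The part of fibre type in the Mb values was not tested.

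Slc40a1, ferroportin, is the iron exporter of the cell membrane. Probe set 1417061_at gave 6674, 4917, 4915, 5233 and 7553 in D257A mice, against 3182, 3957, 3843, 3681 and 5095 in WT mice. The highest WT mouse, 3-18M, lay above the D257A mice 2-21M and 2-25M. The mean was 5859 ± 1194 in D257A mice (SD, n = 5) and 3952 ± 704 in WT mice (SD, n = 5), a log2 fold change of 0.56 ± 0.15 (limma, adjusted p = 0.0361), or 47.7% higher. The call held under 11 of the 22 alternatives, and leaving out any 1 of D257A mice 2-17M, 2-27M and 2-30M or WT mice 1-12M, 2-32M and 2-3M ended it, with adjusted p from 0.0511 to 0.0983. The other probe set, 1448566_at, gave 1646, 1166, 963, 1514 and 1997 in D257A mice, against 990, 1441, 1030, 1051 and 980.0 in WT mice. Its log2 fold change of 0.38 ± 0.19 did not pass (adjusted p = 0.243, and 0.0806 without WT mouse 1-13M).

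Macrophages, which take up old red cells, are rich in ferroportin. Of 13 macrophage markers tested, limma called 8 higher in D257A mice, against 3.71% of all genes tested. None was called lower, and none was lower at an unadjusted p under 0.05. Of the 8, the plan had named Lyz2, Mrc1 and Cd163. The list used was wider than the plan, and Lgals3, Fcgr3, Ctss, Lyz1 and Mpeg1 came from the added genes. Csf1r, Cd68, Adgre1, Cd14 and Fcgr1, all in the plan, did not pass, and Fcgr1 had a log2 fold change of -0.31. The median log2 fold change of the 13 was 0.70, against -0.01 over all genes tested. The summed signal of the 15 markers with a probe set was 18296 to 26557 in D257A mice and 12911 to 16283 in WT mice, with no overlap. Lyz1 alone gave 7524 to 10438 in D257A mice and 4508 to 6884 in WT mice. The median and the sum both take in the added genes, and each added gene that was tested was called. A lack of overlap is therefore not shown for the planned markers alone. Of single probe sets tested, 7.71% did not overlap. The part of these cells in the Slc40a1 values was not tested.

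**Figure D2:**
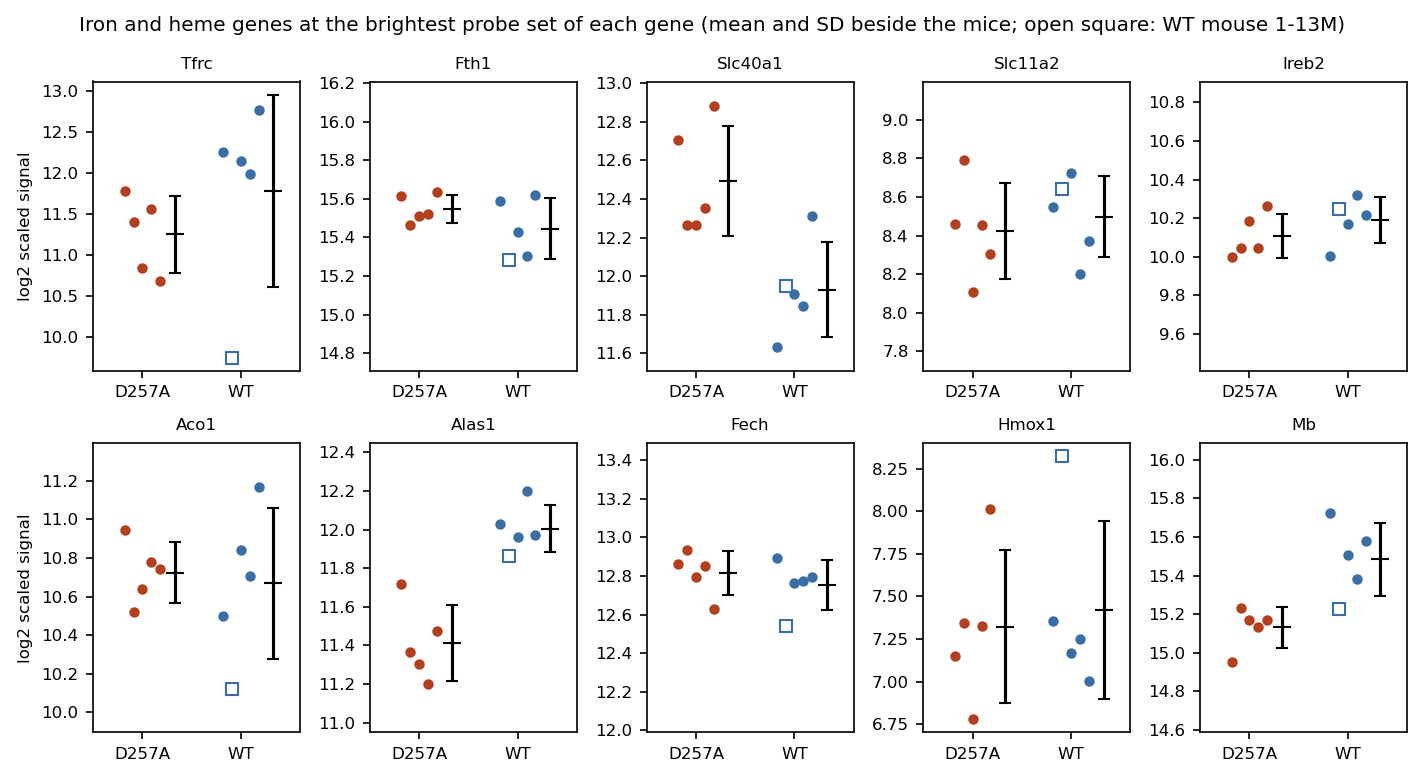
Log2 scaled signal (vertical axis) of each of the 10 iron and heme genes at its brightest probe set, with 1 point per mouse, D257A left of WT, and the mean and SD beside the points. The D257A mice lie below all WT mice for Alas1, and WT mouse 1-13M, the open square, lies at the low end of the WT mice for Tfrc and at the high end for Hmox1.

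Tfrc, the transferrin receptor, is the main entry of iron into most cells, and its signals spread widely among the WT mice. Probe set 1452661_at had signals of 3509, 2704, 1832, 3016 and 1645 in D257A mice, against 4897, 856, 4519, 4037 and 6974 in WT mice. In WT mouse 1-13M the signal was below that of all D257A mice, while in the other 4 WT mice it was above them all. With all 10 mice the log2 fold change was -0.53 ± 0.44 and did not pass (limma, adjusted p = 0.505, 95% interval -1.46 to 0.41). Without WT mouse 1-13M it was -1.03 ± 0.21 (adjusted p = 0.00484).

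At the other 5 probe sets of Tfrc the 4 WT mice beside 1-13M likewise lay above all D257A mice. Probe set 1422966_a_at gave 312, 362, 191, 394 and 116 in D257A mice, against 845, 118, 596, 855 and 595 in WT mice. Its log2 fold change was -0.99 ± 0.49 (adjusted p = 0.239) with all mice and -1.51 ± 0.30 (adjusted p = 0.00422) without WT mouse 1-13M. Among the mice numbered 2 alone, with 5 D257A mice against WT mice 2-3M and 2-32M, it was -1.51 (adjusted p = 0.0471), while 1452661_at had -0.81 and did not pass (adjusted p = 0.0794). With that digit as a block the adjusted p was 0.218 for 1422966_a_at and 0.406 for 1452661_at. Probe set 1422967_a_at was too dim to be tested, with 71.6, 67.1, 34.1, 66.3 and 6.52 in D257A mice, against 105, 10.7, 93.4, 99.5 and 145 in WT mice.

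The 3 control probe sets read the 3′ end, the middle and the 5′ end of the Tfrc message. That of the 3′ end gave 272, 208, 124, 214 and 71.2 in D257A mice, against 397, 75.0, 299.8, 397 and 351 in WT mice, a log2 difference of -0.71 (2-sided exact permutation p = 0.238). That of the middle gave 49.3, 54.6, 6.92, 35.2 and 31.6 in D257A mice, against 138, 6.54, 83.7, 78.0 and 93.9 in WT mice, a log2 difference of -0.95 (exact permutation p = 0.381). That of the 5′ end gave 67.7, 58.8, 16.7, 73.2 and 32.4 in D257A mice, against 127, 39.0, 112, 138 and 143 in WT mice, a log2 difference of -1.22 (exact permutation p = 0.0397). The log2 difference was below 0 at all 6 Tfrc probe sets. With WT mouse 1-13M left out the genotypes overlapped at none of the 6, while 16.1% of all probe sets tested did not overlap without this mouse. Without it, each control probe set had an exact permutation p of 0.0159, the smallest that 5 against 4 mice can give. That p follows from the lack of overlap, which came from leaving out the WT mouse that lay low at these same probe sets. It is no separate test. The 6 probe sets read 1 gene in the same mice and are not independent.

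The Tfrc window, chr16:32608872-32609121 on the plus strand, holds the hypoxia core at position -228 and the CCAC box, read on the other strand, at -186. The windows of Aco1, Ireb2 and Fth1 hold none of the 4 motifs.
Tfrc: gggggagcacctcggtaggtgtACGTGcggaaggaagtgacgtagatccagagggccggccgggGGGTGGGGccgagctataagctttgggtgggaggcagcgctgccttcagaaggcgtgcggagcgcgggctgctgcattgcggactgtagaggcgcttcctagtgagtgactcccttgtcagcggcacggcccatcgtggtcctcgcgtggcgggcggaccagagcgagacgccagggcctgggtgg

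**Figure D3:**
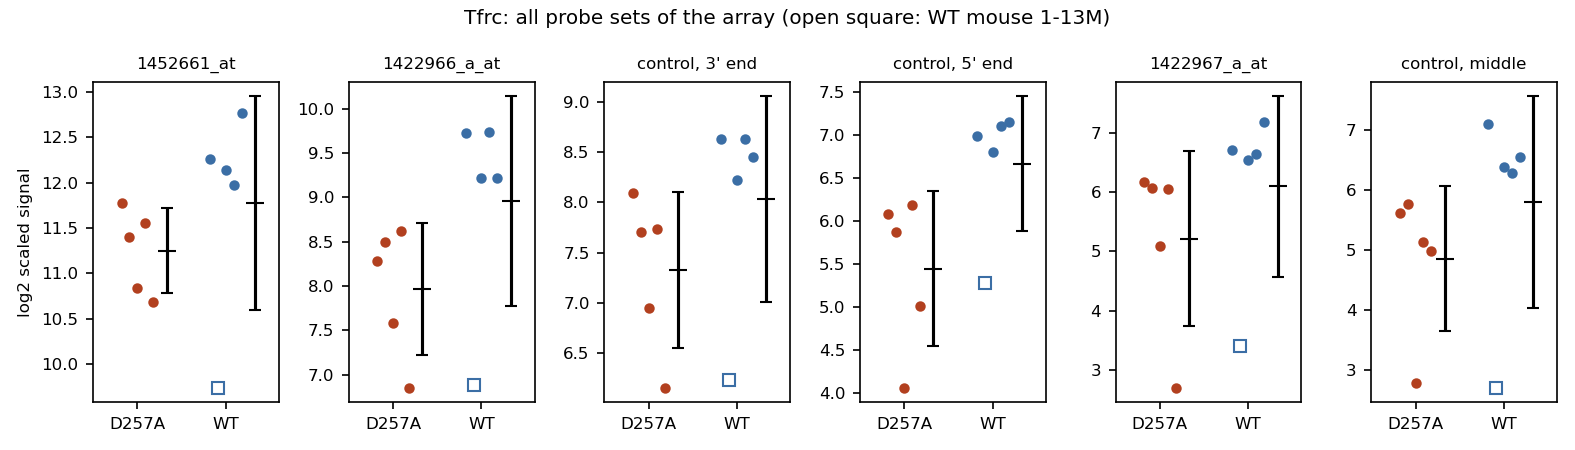
Log2 scaled signal (vertical axis) of the 6 Tfrc probe sets, with 1 point per mouse, D257A left of WT, the mean and SD beside the points, and WT mouse 1-13M as an open square. In each panel the other 4 WT mice lie above all 5 D257A mice and WT mouse 1-13M lies below most of them.

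Slc11a2, the divalent metal transporter that carries iron out of the endosome, was measured by 4 probe sets. Probe set 1426441_at had a log2 fold change of -0.38 ± 0.18 (limma, adjusted p = 0.211), with 239 to 321 in D257A mice and 239.6 to 439.8 in WT mice. WT mouse 1-13M was the lowest WT mouse there, and without it the log2 fold change was -0.53 (adjusted p = 0.0245). The other 2 tested probe sets, 1417584_at and 1452078_a_at, had -0.07 (adjusted p = 0.82) and -0.24 (adjusted p = 0.5), and 1441709_at, with 25.4 to 60.2 in D257A mice and 13.0 to 95.8 in WT mice, was too dim to be tested.

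Fth1, the ferritin heavy chain that oxidizes and stores iron, did not pass at either probe set. Probe set 1448771_a_at had signals of 45232 to 50893 in D257A mice and 39818 to 50429 in WT mice, a log2 fold change of 0.10 (limma, adjusted p = 0.468, 95% interval -0.07 to 0.28). For 1427021_s_at it was 0.15 (adjusted p = 0.282, 95% interval -0.02 to 0.33), and the adjusted p was 0.0489 with each array centred on its median.

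Ireb2, which encodes IRP2, gave 1022 to 1229 in D257A mice and 1025 to 1279 in WT mice, a log2 fold change of -0.08 (limma, adjusted p = 0.707, 95% interval -0.32 to 0.16). Aco1 encodes IRP1, which acts as cytosolic aconitase when it carries an iron-sulfur cluster. Its log2 fold change was 0.05 at 1456728_x_at (adjusted p = 0.88) and 0.07 at 1423644_at (adjusted p = 0.84). Both signs turned with no scaling and without WT mouse 1-13M. At 1456728_x_at signals were 1466 to 1969 in D257A mice and 1114 to 2304 in WT mice, and 1447080_at, with 15.05 to 76.5 in D257A mice and 39.3 to 93.7 in WT mice, was not tested. These arrays measure mRNA, whereas the iron regulation of both proteins acts largely on their stability and on the iron-sulfur cluster.

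Fech, ferrochelatase, places iron into protoporphyrin as the last step of heme synthesis. Its log2 fold change was 0.06 at 1418699_s_at (adjusted p = 0.748), -0.07 at 1449181_at (adjusted p = 0.788) and 0.15 at 1418698_a_at (adjusted p = 0.423). At the brightest, 1418699_s_at, signals were 6339 to 7837 in D257A mice and 5964 to 7618 in WT mice. The 95% intervals ran from -0.35 to 0.38 over these probe sets. The other probe set, 1427696_at, had signals of 1.89 to 8.01 in D257A mice and 4.08 to 17.5 in WT mice and was not tested.

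Hmox1, heme oxygenase 1, breaks heme down and is induced by heme and by oxidative stress. It gave 142, 163, 109.9, 161 and 258 in D257A mice, against 164, 320.1, 144, 152 and 128 in WT mice. WT mouse 1-13M had the highest signal of all 10 mice, and D257A mouse 2-30M the next. The log2 fold change was -0.10 ± 0.27 (limma, adjusted p = 0.867, 95% interval -0.68 to 0.49), and without WT mouse 1-13M it was 0.13 (adjusted p = 0.756).

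Of 70 further genes of iron and heme handling, 63 had a probe set of their own and 54 were tested at the brightest. Of the 54, 4 were higher in D257A mice and 1 was lower, against 3.71% of all 11216 genes tested that were higher and 3.52% that were lower. The median log2 fold change of the 54 was -0.06, against -0.01 over all genes tested.

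Cp, ceruloplasmin, oxidizes iron that leaves through ferroportin. It gave 1125, 1022, 929, 914 and 1176 in D257A mice, against 645, 628, 683, 693 and 566 in WT mice. The genotypes did not overlap, and the log2 fold change was 0.68 ± 0.12 (limma, adjusted p = 0.00501). Cp was called at the brightest probe set in 21 of the 22 alternatives.

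Pcbp2, an RNA-binding protein that also delivers iron to ferritin, likewise had no overlap, with 12193 to 13759 in D257A mice and 9307 to 10577 in WT mice (log2 fold change 0.35 ± 0.08, limma, adjusted p = 0.0147). The Pcbp2 call ended with no scaling (adjusted p = 0.125), with mice blocked by leading digit (adjusted p = 0.105) and with no variance trend (adjusted p = 0.0663). Lcn2, lipocalin 2, binds siderophores, the iron carriers of bacteria. It gave 1150, 472, 139, 213 and 650 in D257A mice, against 9.55, 233, 10.1, 53.3 and 91.1 in WT mice, and WT mouse 1-13M was above D257A mice 2-25M and 2-27M. Lcn2 lay below the filter level of 76.9 in 3 of the 5 WT mice and in 0 D257A mice, so that it was tested only through its signal in D257A mice and the size of its fold is uncertain. Its log2 fold change was 3.31 ± 0.82 (limma, adjusted p = 0.0261), with a 95% interval of 1.56 to 5.06 and values of 2.35 to 4.11 over the alternatives. The Lcn2 call ended without any 1 of D257A mice 2-17M, 2-21M and 2-30M or WT mice 1-12M and 2-3M (adjusted p 0.0535 to 0.0753). It also ended with the methods' t-test (adjusted p = 0.12), with the block (adjusted p = 0.0721) and with no variance trend (adjusted p = 0.0531). Cd163, the receptor for haptoglobin bound to hemoglobin, is also one of the 13 macrophage markers above. It had a log2 fold change of 0.97 ± 0.23 (limma, adjusted p = 0.0209). The Cd163 call ended, with adjusted p from 0.0511 to 0.0594, when D257A mouse 2-30M, WT mouse 1-12M or WT mouse 2-3M was left out. It also ended with the block (adjusted p = 0.153), among the mice numbered 2 alone (adjusted p = 0.112) and with the methods' t-test (adjusted p = 0.087). The part of macrophages in the Cp, Lcn2 and Pcbp2 values was not tested.

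Glrx5, a mitochondrial glutaredoxin needed for iron-sulfur clusters, was the gene lower in D257A mice. It gave 3442, 4651, 4077, 4353 and 3759 in D257A mice, against 6180, 4637, 6331, 5978 and 6191 in WT mice, and WT mouse 1-13M was within the range of the D257A mice. The log2 fold change was -0.53 ± 0.12 (limma, adjusted p = 0.0149). Centring the arrays on their medians ended the call (adjusted p = 0.0601), as did blocking the mice by leading digit (adjusted p = 0.0574). It was the one of 17 tested genes of mitochondrial iron and iron-sulfur clusters that was called. Next by p, Lyrm4 had -0.29 (adjusted p = 0.178) and Fdx1 -0.20 (adjusted p = 0.255).

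Limma called none of the 10 tested genes of heme synthesis outside Alas1 and Fech. Of all genes tested, 3.71% were called higher and 3.52% lower. At an unadjusted p under 0.05, 3 of the 10 were lower and 1 was higher. Alad, the enzyme after Alas1, had a log2 fold change of -0.51 (limma, adjusted p = 0.0586), and Alas2, the red cell form of the enzyme, had 1.05 (adjusted p = 0.0599). Alad gave 536 to 806 in D257A mice and 755 to 1143 in WT mice. Alas2 gave 206 to 608 in D257A mice and 110.1 to 294 in WT mice. Of 7 red cell markers with a probe set, Alas2 and Hbb-b2 were bright enough to be tested and neither was called. Hbb-b2 gave 74.7 to 221 in D257A mice and 135 to 182 in WT mice. The summed signal of the 6 red cell markers other than Alas2 was 268 to 379 in D257A mice and 244 to 337 in WT mice. Hba-a1 and Hba-a2 were dim in all 10 mice, with no more than 51.5.

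Limma called none of 9 tested genes of heme transport and breakdown, against 3.71% of all genes tested called higher and 3.52% lower. Of the 9, 2 were under an unadjusted p of 0.05. Blvrb, a biliverdin reductase, had a log2 fold change of 0.84 (adjusted p = 0.0644), and Slc48a1, a heme transporter, -0.39 (adjusted p = 0.121). Of 8 tested genes of iron uptake and transport, Lcn2 and Cd163 were the ones called, while the ferric reductases Steap4 and Steap3 had -0.27 (adjusted p = 0.206) and -0.32 (adjusted p = 0.576). Among 6 of iron export and its control, Cp alone was called. Fbxl5, which marks IRP2 for degradation, had -0.21 (adjusted p = 0.478) and Hfe, a regulator of hepcidin, -0.15 (adjusted p = 0.547). Of 3 genes of storage and chaperones, Pcbp1 had 0.11 (adjusted p = 0.5005) and Ncoa4, which brings ferritin to the lysosome, 0.05 (adjusted p = 0.813). The globin Cygb had -0.28 (adjusted p = 0.309).

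**Figure D4:**
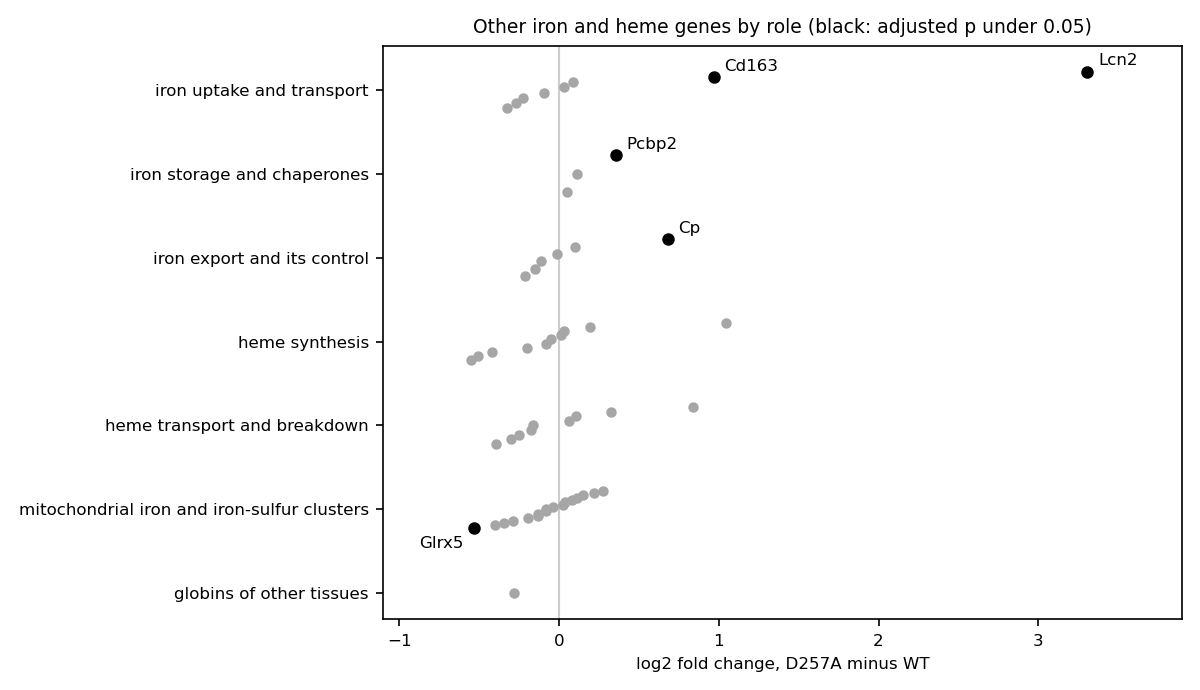
Log2 fold change, D257A minus WT (horizontal axis), of the 54 tested genes of iron and heme handling beside the 10 main genes, by role. Black points are genes with an adjusted p under 0.05. Cd163, Lcn2, Pcbp2 and Cp were higher in D257A mice and Glrx5 was lower.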

How the data were processed

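The arrays were read as the intensity values the authors deposited, 1 signal per probe set and mouse on a linear scale. GCOS 1.3 is named in the submitters' processing notes, and the sources used here do not name the signal algorithm. The study's methods state a scaling to 500, but the deposited columns did not have that mean. Each array was therefore multiplied to a trimmed mean of 500, with 2% of probe sets left out at each end. Probe sets were named from a platform annotation, under which 34958 of the 45101 name 1 gene, 932 several and 9211 none. The 64 control probe sets were set aside.

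Probe sets above the median log2 signal of 6.26, 22518 in all, were compared by lmFit and eBayes of limma 3.58.1 (R 4.3.3), with trended variance and no covariate, with Benjamini-Hochberg adjustment over all of them. For control probe sets a 2-sided exact permutation test over 252 assignments of mice was used, whose smallest p is 0.00794. A gene was read at the brightest probe set that names it alone. The genes named were the 10 main genes at every probe set, each further gene called, and up to 2 more per list with the smallest p. Exceptions named after their values were seen are the marker genes given by name, and Slc39a14, Slc25a28, Hmox2, Cpox and Bach1. The genes and lists were chosen with earlier results of these data known. The number of arrays limits the precision. Python 3.11.15, pandas 2.3.3 and SciPy 1.17.1 were used for tables.

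The fit was repeated with no scaling, each array centred on its median, quantile normalization, no filter, the brightest 11259 probe sets, control probe sets kept, no variance trend, array weights, an offset of 32, the methods' t-test, a block for the first digit of the mouse number, only the mice numbered 2, and without each mouse. The meaning of that digit is not stated. All D257A mice begin with 2, as do WT mice 2-3M and 2-32M. With the block, the genotype contrast therefore rests on these 2 WT mice. Its log2 fold changes equal those of the mice numbered 2 alone, so these alternatives are not separate estimates.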

Additional observations from a re-analysis of the deposited data

Results flagged for a closer look

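Among 64 groups of 5 mice over 32 probe sets, 11 had a mouse that stood apart. On log2 signals, its gap to the nearest of the others, over the range of the group, was above 0.71. The signals printed beside the gaps are not logged. Chance marks about 5% of groups. WT mouse 1-13M was that mouse in 9 of the 11. The 6 Tfrc probe sets are not independent of each other.

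For Tfrc, WT mouse 1-13M had a gap of 0.739 at 1452661_at, where it had 856 and the other WT mice had 4037 to 6974. Its gap was 0.817 at 1422966_a_at, 0.832 at 1422967_a_at, 0.831 at the 3′ control probe set, 0.813 at the 5′ control probe set and 0.813 at the middle control probe set. At the middle control probe set D257A mouse 2-25M also stood apart, with a gap of 0.735 and a signal of 6.92 against 31.6 to 54.6 in the other D257A mice.

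For Slc40a1 at 1448566_at, WT mouse 1-13M had a gap of 0.819, with 1441 against 980.0 to 1051 in the other WT mice. For Hmox1 its gap was 0.734, with 320.1 against 128 to 164. For Glrx5 its gap was 0.816, with 4637 against 5978 to 6331. At the dim Fech probe set 1427696_at, WT mouse 2-3M had a gap of 0.737, with 17.5 against 4.08 to 5.98.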

How the results depend on the processing

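Of the 19 tested probe sets of the main genes, 4 were called, against 7 with array weights, 2 of 24 with no filter, and 1 each with no variance trend, with the leading digit as a block and with the methods' t-test. Leaving out a mouse gave 1 to 7, with 7 without WT mouse 1-13M and 1 without D257A mice 2-17M or 2-30M or WT mice 1-12M, 2-32M or 2-3M. Calls over all probe sets moved too: 7.38% were called, against 15.2% without WT mouse 1-13M, 17.6% with array weights, 2.53% with no filter, 5.02% with no variance trend, 2.50% with the block, 4.59% with the t-test, and 3.95% to 7.93% without any other mouse. Without WT mouse 1-13M both Tfrc probe sets and 1 of Slc11a2 were called. Of the 54 further genes, 5 were called, against 11 with array weights, 3 with no variance trend, 3 with the t-test and 0 in limma's fit with the block, where 10 were under an unadjusted p of 0.05. Leaving out a mouse gave 3 to 10, with 10 without WT mouse 1-13M, where Alas2, Alad, Cpox, Hmox2 and Slc25a28 were also called, and 3 without D257A mouse 2-30M. The t-test called 0 of the slow fibre, fast fibre, heme synthesis and heme transport lists and 5 of the macrophage markers. Centring on the median gave 6 further genes higher and 0 lower, and moved the median of all probe sets by 0.13, to 0.11.

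Log2 fold changes that turned sign were all uncalled. With each array centred on its median they were 0.060 for Slc11a2 1417584_at, 0.052 for Ireb2, 0.063 for Fech 1449181_at and 0.038 for Hmox1. With no scaling they were -0.019 for Aco1 1456728_x_at, -0.0077 for Aco1 1423644_at and -0.013 for Fech 1418699_s_at. With array weights the Aco1 probe sets gave -0.014 and -0.018. With the block, and with only the mice numbered 2, these gave -0.052 and -0.047, Fech 1449181_at 0.0081 and Hmox1 0.11. Leaving out a mouse gave -0.17 to 0.0043 for Slc11a2 1417584_at, -0.082 to 0.18 for Aco1 1456728_x_at, -0.038 to 0.12 for Aco1 1423644_at, -0.14 to 0.017 for Fech 1449181_at and -0.27 to 0.13 for Hmox1. The cause was not tested. No paired analysis was possible because the mice of the 2 genotypes share no replicate number.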

Other observations

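Some values of WT mouse 1-13M and D257A mouse 2-30M, picked after they were seen, stood out at other iron genes. Slc39a14, a transporter of zinc and iron, gave 596, 276, 395, 394 and 1612 in D257A mice, against 354, 2257, 403, 567 and 316 in WT mice, with the highest values in D257A mouse 2-30M and WT mouse 1-13M. Slc25a28, a mitochondrial iron importer, gave 3275 in WT mouse 1-13M and 1392 to 1737 in the other WT mice. Bach1, a heme-sensing repressor, gave 6259 in D257A mouse 2-30M and 2260 to 3617 in the other D257A mice.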
